A study of Mus musculus with 36 samples.

Results

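The genes of the integrin and laminin chains were examined in RNA-seq of whole kidneys from 2 mouse models of autosomal dominant polycystic kidney disease. Members were all genes whose symbol begins with Itga, Itgb, Lama, Lamb or Lamc followed by a chain name, without Itgb1bp1, Itgb3bp and Itgbl1, which carry such a prefix but are no chains. This gave 39 of the 20458 genes that could be paired with a symbol, made up of 18 integrin alpha genes, 9 integrin beta genes, 11 laminin genes (5 alpha, 3 beta and 3 gamma) and Itgb1bp2, which the rule keeps although it encodes the integrin-binding protein melusin and not a chain. The rule chose genes by symbol and not by a measured value, but it was set with earlier results of these data known. A gene with several rows was read from its row of highest mean count. KO kidneys came from Pkd1f/f:HoxB7-Cre or Pkd2f/f:HoxB7-Cre mice, and WT kidneys from Pkd1f/f or Pkd2f/f mice, so that WT animals carried the floxed alleles without the Cre. All were C57BL/6 and were taken at postnatal day 1 (P1), 3 (P3) or 7 (P7), with 3 libraries in each of the 12 groups. HoxB7-Cre acts in the collecting duct and its precursors, whereas RNA was taken from the kidney as a whole. The labels do not say that the 3 libraries of a group came from separate mice, so p-values measure the spread between these libraries, which may in part be technical.

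Integrins are receptors of 1 alpha and 1 beta chain that anchor cells to the extracellular matrix and carry signals from it through talin, kindlin and focal adhesion kinase. Laminins are cross-shaped trimers of 1 alpha, 1 beta and 1 gamma chain and form, with type IV collagen, nidogen and perlecan, the basement membrane on which tubular epithelium rests. In the kidney the laminin chains change as nephrons mature, integrin alpha8 beta1 is needed for ureteric bud outgrowth, and integrin alpha3 beta1 holds podocytes and collecting duct cells to laminin.

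The total count of a library ranged from 7179152 to 15850818 (median 13143336). Y-linked genes had 3926 or more counts in 18 libraries and at most 5 in the other 18. In Pkd1 at P7 all 3 KO and none of the 3 WT libraries had them, so genotype and the sex chromosomes cannot be told apart there, while in Pkd2 at P7 they were present in 3 of 3 KO and 2 of 3 WT libraries. Counts were deposited per RefSeq transcript, and genes listed with several transcripts were mostly near 0. The best row of such genes averaged under 20 counts in 80.4% of 4726 genes, against 38.0% of 15732 genes with 1 row. Among the chains this held for 8 of 9 genes with several rows (Itga3, Itga6, Itgal, Itgam, Itgb4, Itgb5, Itgb6 and Lamb3, with Itga9 as the exception) and for 3 of 30 genes with 1 row. Low values of those 8 chains in this table are therefore no measure of their level in the kidney, and in bulk samples fewer cells of a type and less RNA per cell cannot be told apart.

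The level of each chain was compared between genes as CPM (counts scaled to a library of 1000000) per kilobase of transcript, over the 6 WT libraries at P7. Itgb1, the beta chain shared by most matrix-binding integrins, was the highest at 290.1 ± 25.6 (SD, n = 6 here and for the next values). Lamb1 at 245 ± 27.6 and Lamc1 at 142 ± 23.4, the beta and gamma chains found in most laminins of the body, came next, and the ranges of Itgb1 (246 to 321) and Lamb1 (194 to 273) overlapped. Lama5, the main alpha chain of mature tubular and glomerular basement membrane, stood at 87.8 ± 20.8 and Lamb2, the beta chain of the mature glomerular filter, at 75.3 ± 5.64, and their ranges overlapped too. Lama1, an alpha chain of early nephron basement membrane, was at 37.3 ± 9.79, between Itga8 at 42.7 ± 8.95 and Itgav at 32.1 ± 2.45, and the ranges of these 3 overlapped. The fibronectin receptor chain Itga5 was at 31.7 ± 1.75. Lower levels were seen for Lama4 (21.7 ± 3.12), Lama2 (14.3 ± 3.26) and Lamc3 (8.19 ± 2.24), and Lama3, an alpha chain of epithelial laminins, was at 1.73 ± 0.518. Lamb3 was listed at 0 in the median WT library at P7 and is 1 of the genes with several rows.

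**Figure D1:**
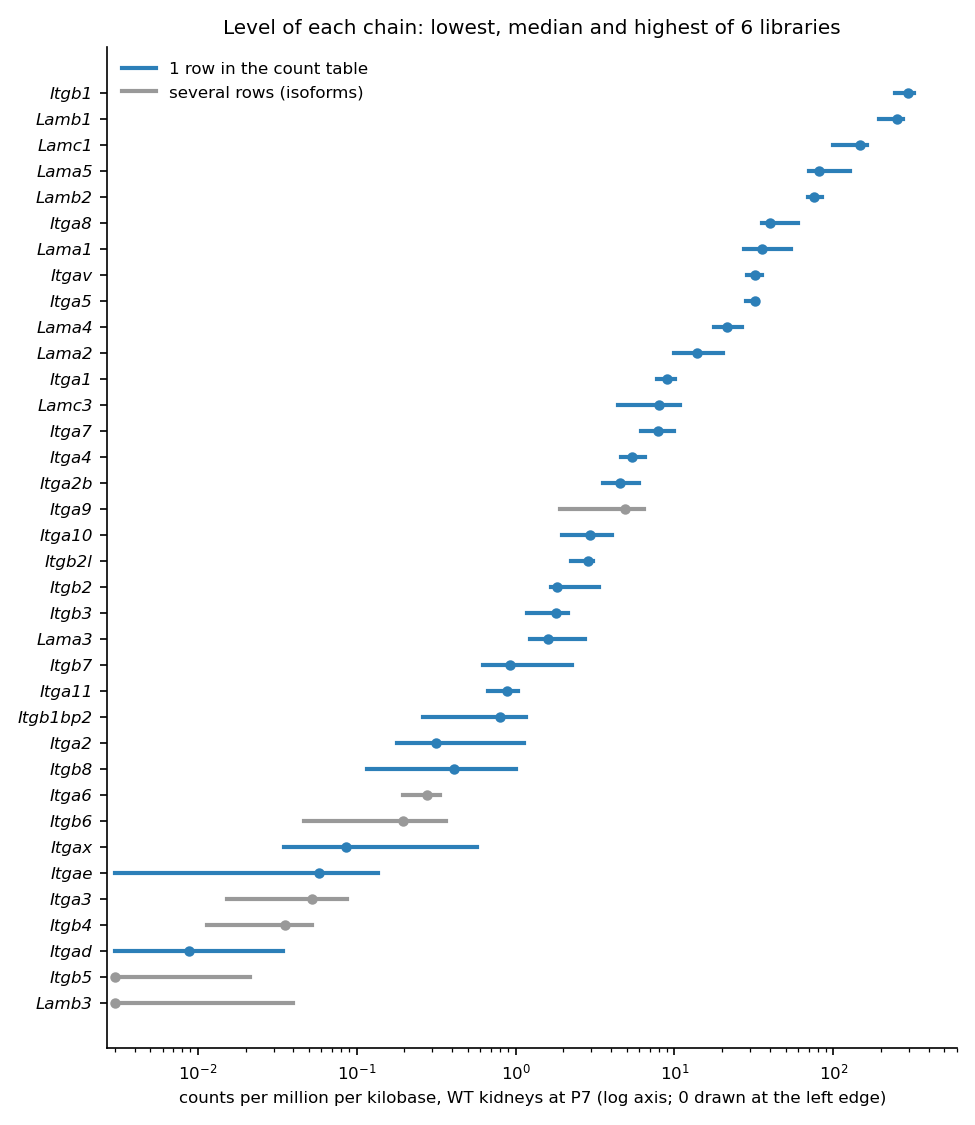
CPM per kilobase of transcript (log axis) in WT kidneys at P7. Lines run from the lowest to the highest of 6 libraries and points are medians, in blue for genes with 1 row in the count table and in grey for genes with several. Itgb1, Lamb1 and Lamc1 lie at the top, and the grey genes, other than Itga9, lie under 0.4. Itgal and Itgam, at 0 in all 6 libraries, are not drawn.

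In WT kidneys, Itga4 and Itga7 were higher and Lama4 was lower at P7 than at P1 in both models. Itga7, an alpha chain of laminin receptors that is abundant in muscle, had 15.2, 10.1 and 14.4 CPM in Pkd1 WT at P1 and 34.4, 24.9 and 39.9 at P7. In Pkd2 WT it had 18.5, 19.3 and 15.7 at P1 and 30.3, 32.5 and 28.8 at P7, and every P7 library lay above every P1 library in both models. The rise was 1.29 on the log2 scale (standard error, SE, 0.21, adjusted p = 0.00321) and 0.77 (SE 0.19, adjusted p = 0.0239) in edgeR's quasi-likelihood test. The call in Pkd2 was lost without P1 replicate 2, P1 replicate 3, P7 replicate 1 or P7 replicate 2. Lama4, the alpha chain of vascular and stromal laminins, fell by 0.81 on the log2 scale in Pkd1 WT (SE 0.14, adjusted p = 0.0042) and by 0.73 in Pkd2 WT (SE 0.09, adjusted p = 0.0014). Its course was not a steady one, since Pkd1 WT means over P1, P3 and P7 were 238, 314 and 136.6 CPM and Pkd2 WT means were 207, 259.9 and 125. Itga4, the alpha chain that binds Vcam1 and fibronectin, had 27.8, 21.1 and 22.7 CPM in Pkd1 WT and 35.5, 30.7 and 29.4 in Pkd2 WT at P1, below all WT libraries at P7, and rose by 1.16 (SE 0.17, adjusted p = 0.00209) and 0.71 (SE 0.12, adjusted p = 0.00499).

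In all, 5 of 31 chains tested passed in Pkd1 WT (3 higher, 2 lower), beside 17.9% of 12527 transcripts (8.86% higher and 9.07% lower), and 7 of 30 in Pkd2 WT (6 higher, 1 lower), beside 19.2% of 12633 (9.02% higher and 10.2% lower). These shares, 16.1% and 23.3% of the chains, lie near the background and are no result about the chains as a group. Itgb2, the leukocyte beta chain, rose by 1.79 in Pkd1 WT. In Pkd2 WT the others were Itga1, Itgav, Itgb1 and Itgb2l, all higher. The presence of Y-linked counts differed between the WT groups of Pkd1 at P1 (2 of 3) and P7 (0 of 3). Fitted with that covariate, 2 chains passed in Pkd1 WT (Itga4 and Itga7) and 4 in Pkd2 WT (Itga4, Itga7, Itgav and Lama4). In Pkd1 WT only P1 held libraries with and without these counts, so the term rested on that group alone. In Pkd2 WT the count was 2 without P1 replicate 2 or P7 replicate 2, and 3 without P1 replicate 3 or P7 replicate 1, while the calls over all transcripts fell from 2427 to between 1086 and 1527 in these 4 fits.

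At P1 and P3 no chain passed the test between KO and WT. At P1 0 of 31 chains passed in Pkd1 and 0 of 30 in Pkd2, beside 0% of transcripts in each, while 0 and 1 of them had an unadjusted p under 0.05, as did 161 of 12527 and 708 of 12633 transcripts, and DESeq2 called 0 in both. The 3 smallest p values at P1 were those of Lama5 (log2 fold change -0.40), Itga2 (-0.60) and Itgb7 (-0.68) in Pkd1, and of Itgb1bp2 (0.85), Lama1 (-0.16) and Itgb1 (0.15) in Pkd2. At P3 0 of 31 chains passed in Pkd1, beside 0.00798% of transcripts, and 9 had an unadjusted p under 0.05, as did 1767 of 12527 transcripts. In Pkd2 0 of 30 passed, beside 0%, and 3 had an unadjusted p under 0.05, as did 563 of 12633 transcripts.

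At P3, Lama5 had one of the 3 smallest p values in both models. In Pkd1 it had 979, 978 and 1129 CPM in KO and 697, 897 and 763 in WT, and in Pkd2 1118, 1022 and 953 in KO and 778, 530.0 and 677 in WT. The KO libraries lay above the WT libraries in both models, with log2 fold changes of 0.39 (SE 0.10, adjusted p = 0.185) and 0.63 (SE 0.14, adjusted p = 0.931) in edgeR's test. DESeq2 called Lama5 in both models at P3, and in Pkd1 also Itga1, Itgav and Itgb8, 4 chains in all, beside 227 of 12527 transcripts in Pkd1 and 39 of 12633 in Pkd2. Itgb8, which with the alphav chain activates latent TGF-beta, had a log2 fold change of -1.25 (adjusted p = 0.185) in Pkd1 and Itgav one of -0.34 (adjusted p = 0.185). All 4 chains, Lama5 among them, have transcripts over 5000 bases. Over all tested transcripts of that length the median log2 fold change in Pkd1 at P3 was -0.14, and its part in these values was not tested. In Pkd2 the other 2 smallest p values at P3 were those of Itgb7 (-1.83) and Itga2 (1.15).

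At P7, 10 chains differed between KO and WT in at least 1 model, and Lamc3 (lower) and Itga5 (higher) passed in both. In Pkd1, 6 of 31 chains passed (1 higher and 5 lower), beside 13.7% of transcripts (6.20% higher and 7.54% lower). In Pkd2, 6 of 30 passed (4 higher and 2 lower), beside 13.9% (7.82% higher and 6.06% lower). The median log2 fold change of the chains was -0.19 in Pkd1 and -0.01 in Pkd2, against medians of -0.01 and 0.00 over all transcripts tested. Of the chains, 8 could be tested in neither model, 6 of them with several rows and 2 with 1 row (Itgad and Itgae). With transcript length corrected, a step described below, 8 chains passed in Pkd1 (3 higher and 5 lower) and 5 in Pkd2 (4 higher and 1 lower).

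The counts rested on few libraries. In Pkd1 at P7, 2 chains passed without WT replicate 1 or KO replicate 1 and 1 without KO replicate 2, and in Pkd2 3 passed without WT replicate 1, WT replicate 2 or KO replicate 3. The calls over all transcripts fell in the same fits, in Pkd1 from 1721 to 224, 473 and 347, and in Pkd2 from 1753 to 650, 1237 and 820, in the order named. Lamc3 passed in all 6 of these fits in each model.

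**Figure D2:**
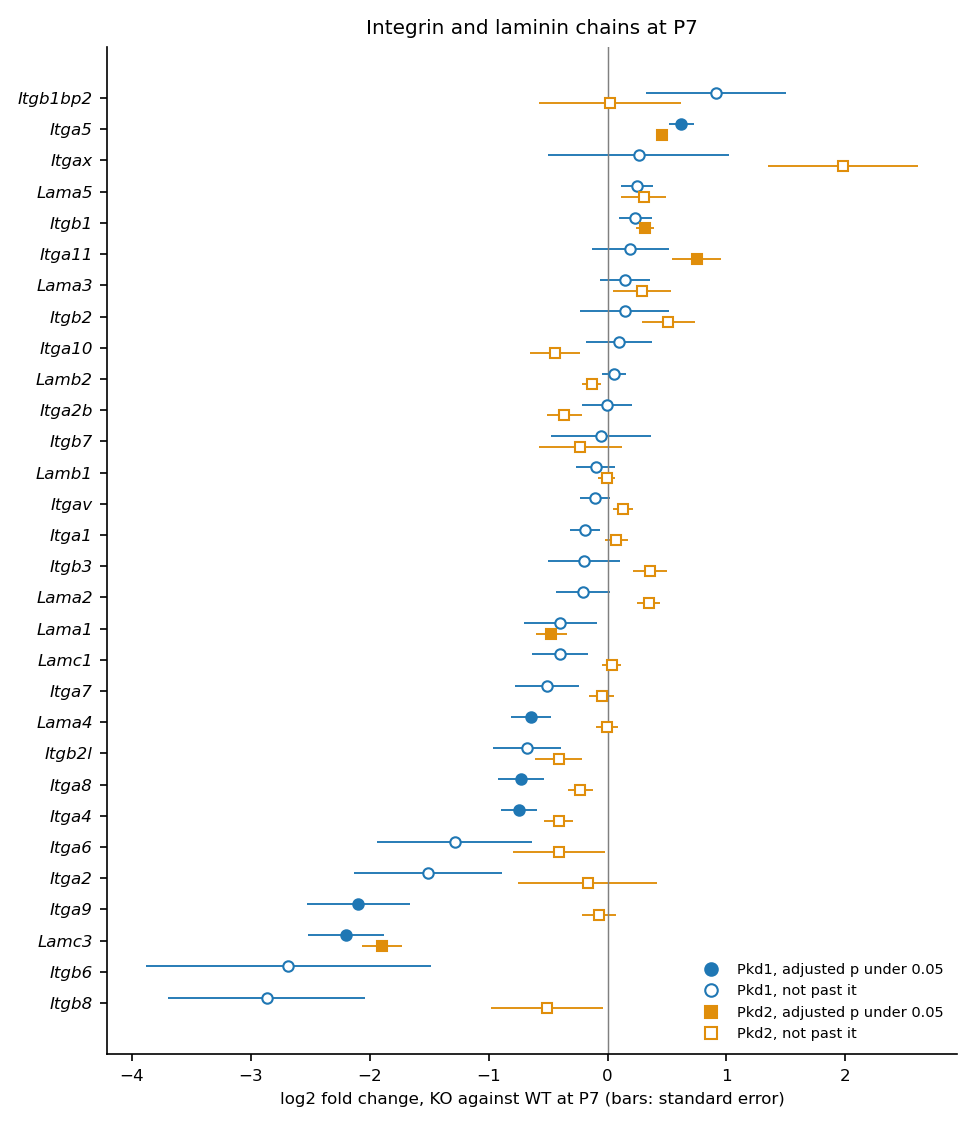
Log2 fold change of KO against WT at P7 for chains tested, with bars for the standard error, in Pkd1 (blue circles) and Pkd2 (orange squares). Filled symbols had an adjusted p under 0.05 (edgeR, n = 3 per group), and filled symbols of both models stand beside Lamc3 and Itga5.

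Lamc3 was lower in KO at P7 in both models, in every fit that was run. It encodes the gamma3 chain, which replaces gamma1 in a few laminins (NM_011836, chromosome 2, 31887281 to 31949083 of GRCm38.p6, the assembly of mm10). At P7 it had 48.4, 63.2 and 25.8 CPM in Pkd1 WT and 11.1, 8.25 and 10.8 in Pkd1 KO. In Pkd2 it had 45.6, 45.9 and 59.5 in WT and 11.6, 12.1 and 16.5 in KO. All 6 KO libraries lay below all 6 WT libraries, and the WT mean was 4.57 times the KO mean in Pkd1 and 3.76 times in Pkd2. The log2 fold change of KO against WT, here called the KO effect in log2, was -2.20 (SE 0.32, adjusted p = 0.0091) in Pkd1 and -1.90 (SE 0.17, adjusted p = 0.000695) in Pkd2. At P1 and P3 the 2 genotypes overlapped in both models, as at P3 in Pkd2 with 43.2, 37.5 and 44.9 CPM in KO and 43.4, 39.6 and 38.8 in WT. The call at P7 held under each alternative fit and without any 1 library, with log2 fold changes from -2.49 to -1.89 in Pkd1 and from -2.07 to -1.76 in Pkd2 when a library was left out. In Pkd2, where a term for Y-linked counts could be fitted at P7, the KO effect with that term was -1.76 (adjusted p = 0.000395).

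**Figure D3:**
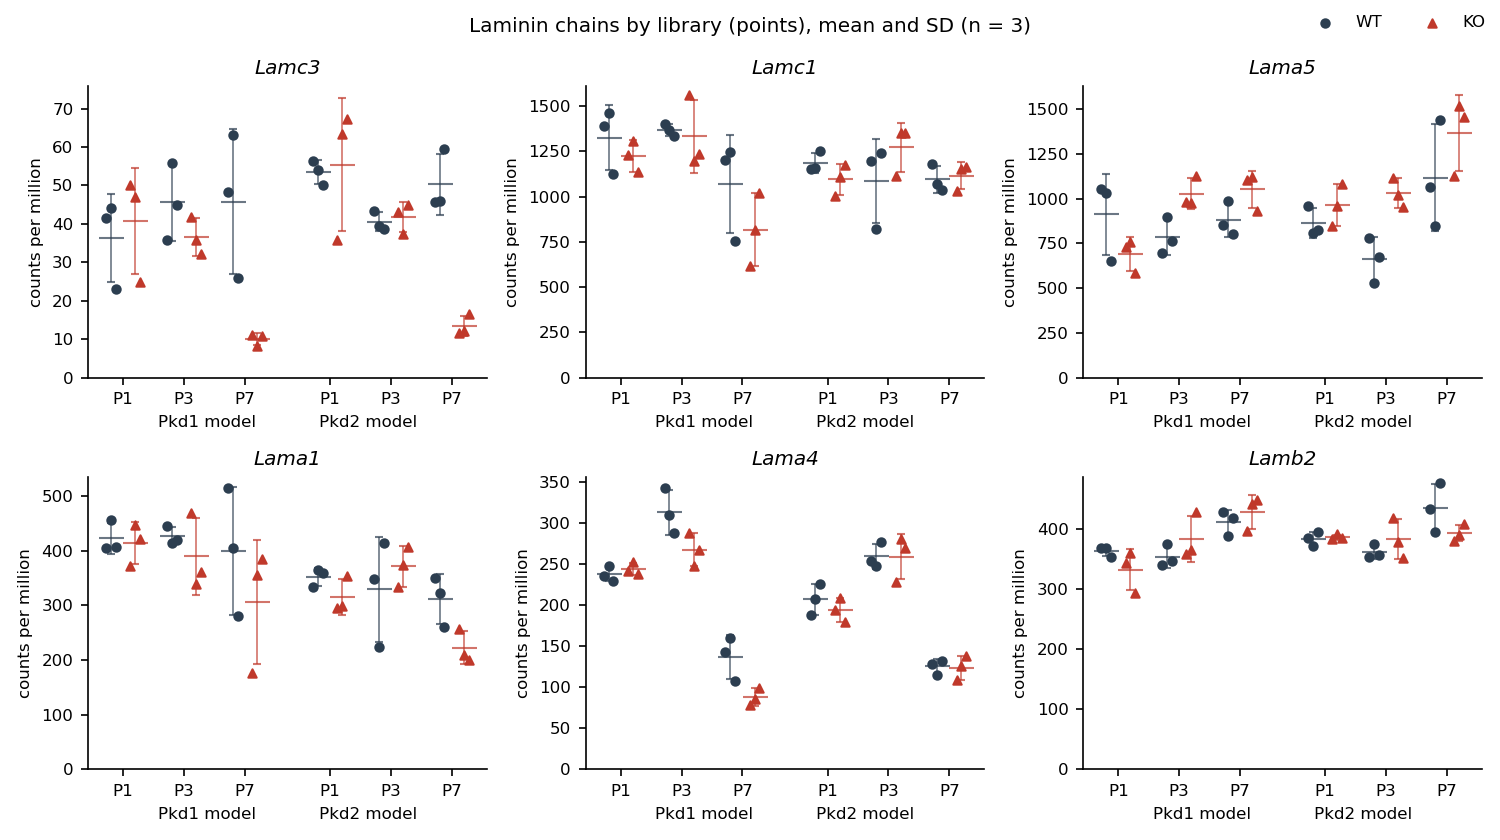
CPM of 6 laminin genes in every library (WT circles, KO triangles) by day and model, with the mean and SD of each group (n = 3). The KO libraries of Lamc3 fall to 8.25 to 16.5 at P7. Lama4 is lower at P7 than at P3 in all groups.

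Of the alpha chains, Lama1 passed as lower in Pkd2 and Lama4 in Pkd1, and neither difference between the models passed, at 0.09 (SE 0.38, adjusted p = 0.918) for Lama1 and -0.62 (SE 0.21, adjusted p = 0.183) for Lama4. Lama1 had 257, 209.7 and 201 CPM in Pkd2 KO at P7 and 349.7, 323 and 260.4 in WT, so that the highest KO library lay just under the lowest WT library. Its KO effect in log2 was -0.47 (SE 0.13, adjusted p = 0.0457), and the adjusted p rose to between 0.103 and 0.156 without WT replicate 1, WT replicate 2, KO replicate 2 or KO replicate 3. In Pkd1 the groups overlapped, with 176, 356 and 386 in KO and 514, 406 and 280.3 in WT, at -0.40 (SE 0.31, adjusted p = 0.399). Lama4 had 78.2, 85.9 and 99.6 in Pkd1 KO and 143, 160 and 107 in WT. Its KO effect in log2 was -0.64 (SE 0.17, adjusted p = 0.0419), with an adjusted p of 0.0588 to 0.141 when any library other than WT replicate 3 was left out. In Pkd2 no difference was detectable, with a log2 fold change of 0.00 (SE 0.09, adjusted p = 0.984).

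The chains of the main tubular laminins gave no call at P7. Lama5 had 1105, 1120 and 931 CPM in Pkd1 KO and 852, 989 and 803 in WT, at 0.25 (SE 0.14, adjusted p = 0.236). In Pkd2 it had 1126, 1519 and 1457 in KO and 1063, 850.1 and 1441 in WT, at 0.30 (SE 0.19, adjusted p = 0.338), where WT replicate 3 stood with the KO libraries. Without that library, the only WT library of the group that lacks Y-linked counts, the log2 fold change was 0.53 and passed (adjusted p = 0.0431). Lamb1 had log2 fold changes of -0.10 (SE 0.16) and -0.01 (SE 0.07), Lamb2 of 0.05 (SE 0.10) and -0.14 (SE 0.08), and Lamc1 of -0.40 (SE 0.24) and 0.04 (SE 0.08). The smallest adjusted p of these 6 tests was 0.273. Lama2, the alpha chain of muscle and stroma, was at -0.21 (adjusted p = 0.552) in Pkd1 and 0.35 (adjusted p = 0.0527) in Pkd2. Lama3 had log2 fold changes of 0.15 (adjusted p = 0.649) and 0.29 (adjusted p = 0.481), and Lamb3 was too low to test.

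Among the integrins, Itga5 rose in both models. It is the alpha chain of the classical fibronectin receptor and pairs with the beta1 chain only (NM_010577, chromosome 15, 103344286 to 103366791, minus strand). At P7 it had 196, 222 and 213 CPM in Pkd1 KO and 139, 124 and 144 in WT, and in Pkd2 197, 197 and 187 in KO and 146, 139 and 141 in WT. All KO libraries lay above all WT libraries, by 1.55 times in the means of Pkd1 and 1.36 times in those of Pkd2. The KO effect in log2 was 0.62 (SE 0.11, adjusted p = 0.0138) in Pkd1 and 0.46 (SE 0.05, adjusted p = 0.00175) in Pkd2. In Pkd1 the adjusted p was 0.0691 without WT replicate 1 and 0.0621 without KO replicate 2, and in Pkd2 the call held without any 1 library. No test of Itga5 passed at P1 or P3, with group means between 126 and 151 CPM over the 8 groups of P1 and P3 and both genotypes. At P3 in Pkd1 the KO libraries nevertheless lay above the WT libraries, with means of 146.9 and 125.8 CPM. The log2 fold change there was 0.23 (SE 0.07, adjusted p = 0.21 in edgeR's test). KO and WT overlapped at P3 in Pkd2 and at P1 in both models.

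Its partner Itgb1 passed as higher in Pkd2 and did not pass in Pkd1. It had 1278, 1459 and 1470 CPM in Pkd2 KO at P7 and 1114, 1141 and 1155 in WT, with no overlap, and the KO effect in log2 was 0.31 (SE 0.07, adjusted p = 0.0302). The adjusted p was between 0.0805 and 0.123 without WT replicate 1, WT replicate 2, KO replicate 2 or KO replicate 3. In Pkd1 it had 1366, 1162 and 1291 in KO and 1067, 1226 and 939 in WT, which overlapped, at 0.23 (SE 0.14, adjusted p = 0.273). The difference of the KO effect between the models was -0.06 (SE 0.16, adjusted p = 0.867).

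Because these partner chains are the integrin genes that were higher in KO with the most counts, their promoters are shown from 250 bases before to 50 after the start of the gene, from RefSeq on GRCm38.p6. The capitals mark matches to the GC box GGGCGG on either strand. Itga5 has 2 matches and Itgb1 has 1, and 35.9% of 32544 promoters of the same length hold at least 1. Neither holds a match to the AP-1 motif TGANTCA, which 7.79% of promoters do. The motifs are a description of these letters only, and 24 of the 39 genes matched the promoter table.
Itga5, chr15:103366742-103367041, minus strand: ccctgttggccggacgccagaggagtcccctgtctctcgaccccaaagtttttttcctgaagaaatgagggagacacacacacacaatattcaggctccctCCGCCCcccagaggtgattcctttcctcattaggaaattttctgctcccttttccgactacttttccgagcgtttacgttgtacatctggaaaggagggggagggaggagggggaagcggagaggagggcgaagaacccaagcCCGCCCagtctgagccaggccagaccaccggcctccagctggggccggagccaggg
Itgb1, chr8:128685404-128685703, plus strand: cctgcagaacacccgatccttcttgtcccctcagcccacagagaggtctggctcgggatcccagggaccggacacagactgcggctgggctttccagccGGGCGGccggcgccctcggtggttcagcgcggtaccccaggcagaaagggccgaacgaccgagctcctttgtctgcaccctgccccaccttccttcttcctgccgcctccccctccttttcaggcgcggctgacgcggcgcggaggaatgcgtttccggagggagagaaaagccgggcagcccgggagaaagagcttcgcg

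Itga4, Itga8 and Itga9, which share the beta1 chain and bind fibronectin, tenascin-C, osteopontin, nephronectin or Vcam1, were lower in Pkd1 KO at P7. Itga4 (NM_010576, chromosome 2, 79255426 to 79333114) had 31.4, 30.9 and 34.7 CPM in Pkd1 KO and 44.8, 63.6 and 53.4 in WT, and 33.0, 45.8 and 38.5 in Pkd2 KO and 51.6, 55.4 and 50.3 in WT. Within each model it lay lower in all KO than in all WT libraries. Its KO effect in log2 was -0.74 (SE 0.15, adjusted p = 0.022) in Pkd1 and -0.41 (SE 0.12, adjusted p = 0.0579) in Pkd2, where DESeq2 called it (adjusted p = 0.0195). In Pkd1 the adjusted p was 0.073 without KO replicate 1 and 0.0937 without KO replicate 2. The rise of Itga4 with age seen in WT was smaller in KO, with Pkd1 means over P1, P3 and P7 of 26.9, 25.2 and 32.4 CPM, against 23.9, 32.4 and 53.9 in WT. Itga4 is also the chain that the study names as a direct target of miR-182-5p. It reports that the miRNA lowered an Itga4 3′ UTR reporter in cultured collecting duct cells, and that mutating the seed site restored it. The study describes this regulation for Pkd1-deficient mice and not for Pkd2-deficient ones. From western blots of those cultured cells it reports negative regulation of Itga4 by the miRNA. In Pkd1f/f:HoxB7-Cre kidneys it reports lower Itga4 mRNA by quantitative PCR and less Itga4 protein in cells lining cysts. In Pkd1f/f:Aqp2-Cre mice it reports that Itga4 expression was restored when a lentivirus inhibited the miRNA. The mature miRNA is shown with its seed, bases 2 to 8, in capitals.
mmu-miR-182-5p: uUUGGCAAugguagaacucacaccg
Itga4 3′ UTR, chr2:79328512-79328538 of GRCm38, plus strand: tatttcatgaggaTGCCAAAgttaata
The capitals in the Itga4 site mark TGCCAAA, the complement of seed bases 2 to 7 followed by A, and the full complement of the seed, TTGCCAA, was not found in this UTR. Either form was found in the 3′ UTRs of 6 of 38 integrin and laminin genes (Itga1, Itga3, Itga4, Itga11, Itgb8 and Lamc1), and in 15.936% of 27611 transcripts with a 3′ UTR. Of the other 5 genes, Itga11 was higher in Pkd2 KO at P7, Itga1, Itgb8 and Lamc1 gave no call in edgeR's test, and Itga3 was too low to test. The match shown here is a description of the sequence and is by itself not evidence of binding.

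Itga9, a receptor chain for tenascin-C and Vcam1 (NM_133721, chromosome 9, 118606709 to 118901003), had 6.52, 4.997 and 9.18 CPM in Pkd1 KO at P7 and 29.2, 45.3 and 13.4 in WT. The groups did not overlap, but WT replicate 3 lay closer to the KO libraries than to the other WT libraries. The KO effect in log2 was -2.10 (SE 0.43, adjusted p = 0.0219). The adjusted p was 0.0731 without WT replicate 1, 0.0698 without KO replicate 1 and 0.0988 without KO replicate 2. Itga9 has 2 rows in the count table, and these values are of the row with the highest mean count. Its call in Pkd1 held when the rows of a gene were summed. In Pkd2 it had 34.0, 36.0 and 33.9 in KO and 39.4, 42.2 and 28.5 in WT, which overlapped, at -0.07 (SE 0.14, adjusted p = 0.779). The KO effect differed between the models by -2.00 (SE 0.49), which missed the threshold (adjusted p = 0.137) in edgeR's interaction test, and DESeq2 called that difference.

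Itga8, the nephronectin receptor chain of mesenchyme and mesangium, had 152, 165 and 164 CPM in Pkd1 KO at P7 and 239, 348 and 205 in WT. The KO effect in log2 was -0.73 (SE 0.19, adjusted p = 0.0408), and the adjusted p was 0.0502 to 0.124 when any library other than WT replicate 3 was left out. In Pkd2 the groups overlapped, at -0.23 (SE 0.11, adjusted p = 0.191).

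**Figure D4:**
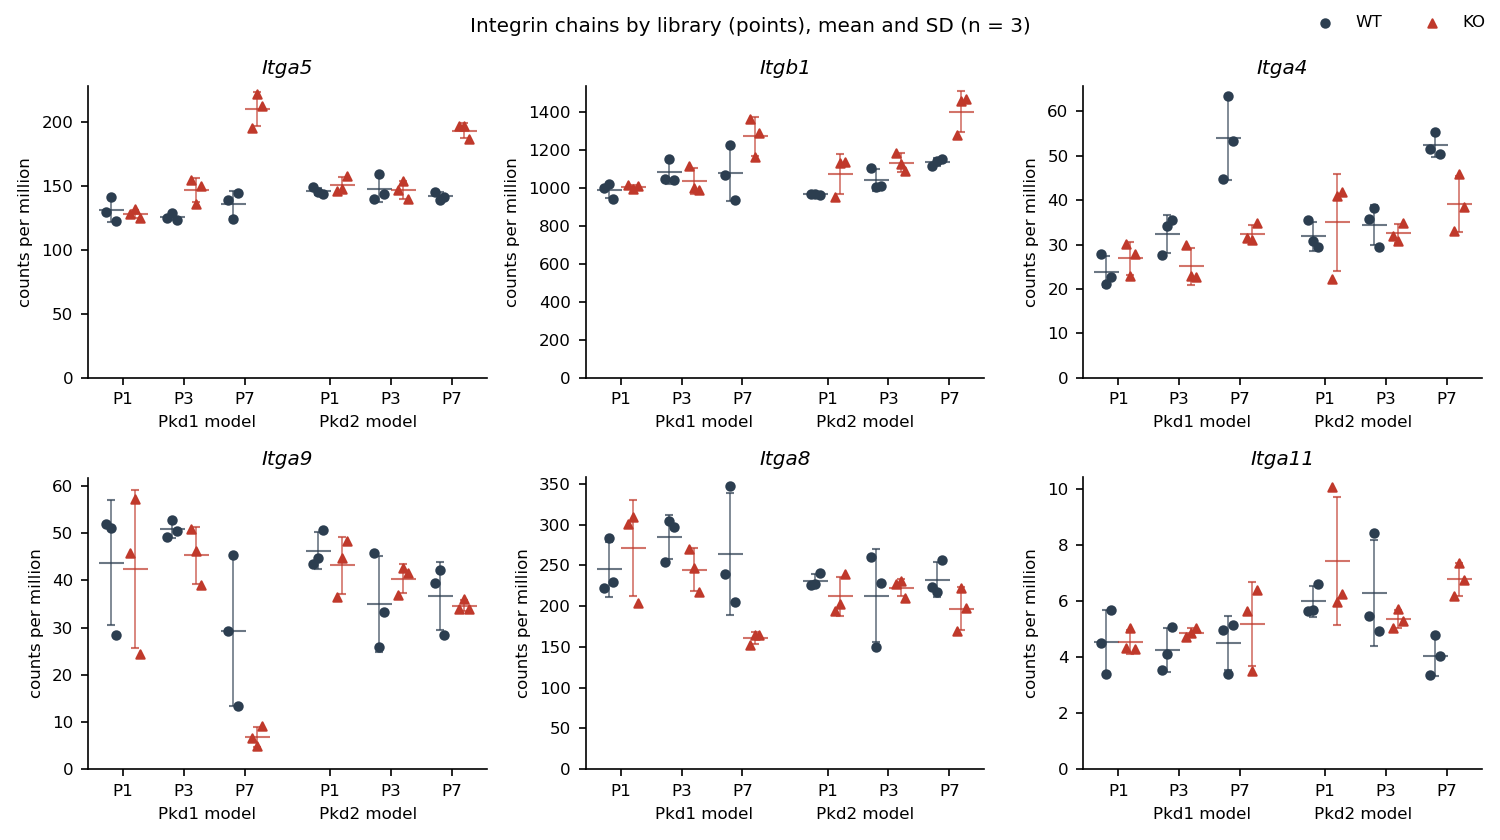
CPM of 6 integrin genes in every library (WT circles, KO triangles) by day and model, with the mean and SD of each group (n = 3). Itga5 rises in KO at P7 in both models to 187 to 222, Itga4 lies lower in KO than in WT at P7, and Itga9 lies at 4.997 to 9.18 in Pkd1 KO at P7.

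Itga11, the collagen receptor chain of fibroblasts, was low throughout. It had 6.20, 7.36 and 6.77 CPM in Pkd2 KO at P7 and 3.34, 4.78 and 4.04 in WT, from 44 to 97 counts per library. The KO effect in log2 was 0.75 (SE 0.20, adjusted p = 0.0465), and the adjusted p was above 0.05 without any 1 of the 6 libraries (0.0525 to 0.152). In Pkd1 it was at 0.19 (adjusted p = 0.709). The levels of 10 stromal and mesangial markers (Pdgfra, Pdgfrb, Col1a1, Col3a1, Dcn, Acta2, Des, Tcf21, Foxd1 and Meis1) were also summed. At P7 the sum was 9060 to 10700 CPM in Pkd2 KO and 6419 to 6850 in WT, with Pdgfrb, which has several rows, at 0. At P1 in Pkd2 it was 5849 to 7914 in KO and 4655 to 5325 in WT, where Itga11 overlapped between the genotypes. In Pkd1 at P7 the sum was 7872 to 9207 in KO and 6262 to 7859 in WT. The part of these sums in the values of Itga11 was not tested. In Pkd2 at P7, 3 of 8 tested rose (Acta2, Col1a1 and Des) and Dcn fell by 0.97 (adjusted p = 0.011). The median log2 fold change was 0.08. In Pkd1 at P7, 2 of 8 rose (Acta2 and Des) and Dcn fell by 2.40 (adjusted p = 0.0268), with a median of 0.27. Of all transcripts, 7.82% were higher and 6.06% lower in Pkd2, and 6.20% higher and 7.54% lower in Pkd1. Dcn has 2 rows in the count table, and the row used had a mean of 105.2 counts per library.

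Of the other integrin chains of tubular epithelium, Itgav had log2 fold changes of -0.11 (adjusted p = 0.582) in Pkd1 and 0.13 (adjusted p = 0.361) in Pkd2 at P7. Itgb8 had 0.238, 0.476 and 0.955 CPM in Pkd1 KO and 2.87, 8.47 and 0.97 in WT, a log2 fold change of -2.87 (SE 0.83, adjusted p = 0.0544) that DESeq2 called (adjusted p = 0.00443). In Pkd2 it was at -0.51 (adjusted p = 0.521). Itga6, a laminin receptor chain with several rows, was at -1.29 (adjusted p = 0.205) and -0.41 (adjusted p = 0.536), from 1 to 20 counts per library. Itgb6, which pairs with alphav, was at -2.68 (adjusted p = 0.156) in Pkd1 and too low to test in Pkd2. Itga3 and Itgb4 were too low to test in both.

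The leukocyte chains gave no call at P7. Itgb2 had 12.7, 7.85 and 5.14 CPM in Pkd1 KO and 5.25, 7.92 and 9.999 in WT, and 8.45, 5.31 and 8.64 in Pkd2 KO and 4.94, 5.63 and 5.25 in WT, so that the groups overlapped in both. Its log2 fold changes were 0.15 (adjusted p = 0.813) and 0.51 (adjusted p = 0.177). Itgax was at 0.26 (adjusted p = 0.832) in Pkd1 and 1.98 (SE 0.63, adjusted p = 0.0768) in Pkd2, and Itgam and Itgal were at 0 in all libraries at P7. Leukocyte markers were higher in KO at the same time. The summed level of the 14 markers (among them Ptprc, Cd68, Adgre1, Csf1r, Lyz2, Cd14, C1qa, C1qb, Tyrobp, Fcer1g, Cd3e, S100a8 and S100a9) was 419 to 518 CPM in Pkd1 KO and 243 to 369.6 in WT, and 396 to 515 in Pkd2 KO and 249 to 295 in WT, with S100a9 at 0 in every library and Ptprc at 3 counts or fewer. Of 11 that could be tested, 3 rose in Pkd1, beside 6.20% of all transcripts, and 7 in Pkd2, beside 7.82%, and none fell. The 9 remaining genes tested in both models (Itga1, Itga2, Itga2b, Itga7, Itga10, Itgb1bp2, Itgb2l, Itgb3 and Itgb7) gave no call at P7, with log2 fold changes between -1.51 for Itga2 and 0.91 for Itgb1bp2, both in Pkd1.

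Markers of other kidney cells also moved at P7, and their part in the values of the chains was not tested. Beside their calls stand 13.7% of all transcripts in Pkd1 and 13.9% in Pkd2. The 8 proximal tubule markers summed to 1685 to 3305 CPM in Pkd1 KO and 5084 to 7161 in WT, and to 3429 to 3854 in Pkd2 KO and 5723 to 7475 in WT. All 7 tested fell in Pkd1 and 6 of 7 in Pkd2. The 10 collecting duct markers, of which Scnn1b and Avpr2 were at 0 in every library, summed to 520.0 to 664 in Pkd1 KO and 1028 to 1187 in WT, and to 571 to 671 and 925 to 1380 in Pkd2. Of 5 tested, 3 fell in each model, among them Aqp2 and Aqp3, and Gata3 rose in Pkd1 by 0.66 (adjusted p = 0.0477). The 8 endothelial markers, of which Pecam1 and Tek were at 0 in every library, summed to 616 to 776 in Pkd1 KO and 857 to 1034 in WT, and to 639.8 to 761 and 886 to 1103 in Pkd2. Of 4 tested, 1 fell in Pkd1 and 3 in Pkd2. KO and WT did not overlap in any of these sums. The sums of the 8 podocyte markers, of which Ptpro was at 0, overlapped. They were 1357 to 1924 in Pkd1 KO and 1680 to 2435 in WT, and 1503 to 2196 and 2078 to 2591 in Pkd2. Of 7 tested, 1 fell in Pkd1 (Podxl, at -0.78, adjusted p = 0.0355 in edgeR's test) and 0 in Pkd2. The median log2 fold changes of those tested were -0.33 and -0.31. The 6 nephron progenitor markers summed to 43.1 to 49.8 in Pkd1 KO and 44.3 to 56.2 in WT, and none of 5 tested passed in either model.

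Transcript length went along with the KO effect in Pkd1 at P7. Over all transcripts tested, the median log2 fold change was 0.20 for those up to 2000 bases, -0.03 for those between 2000 and 5000 bases and -0.20 for those over 5000 bases. In the longest class 2.16% were higher and 13.3% lower. In Pkd2 the same medians were 0.04, 0.00 and -0.03, and 7.16% of the longest were higher and 6.59% lower. Integrin and laminin transcripts are long, and 19 of the 31 chains tested in Pkd1 were over 5000 bases, with a median log2 fold change of -0.21. All 5 chains that fell in Pkd1 were among them, and none of the 19 rose. The share of counts on transcripts over 5000 bases was 18.6%, 19.6% and 19.3% in Pkd1 KO at P7 and 22.5%, 24.9% and 19.4% in WT, so that WT replicate 3 stood with the KO libraries. At P3 the medians of the 3 length classes also stepped down in Pkd1, at 0.06, 0.00 and -0.14. In Pkd2 at P3 they were -0.04, -0.02 and 0.04.

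When the trend with length was taken out of each library, 8 chains passed in Pkd1 at P7. The 6 chains named above kept their direction and passed, with Lamc3 at -1.96 (adjusted p = 0.00707), Itga9 at -1.82 (adjusted p = 0.0199), Itga4 at -0.52 (adjusted p = 0.039), Itga8 at -0.51 (adjusted p = 0.0352), Lama4 at -0.42 (adjusted p = 0.045) and Itga5 at 0.76 (adjusted p = 0.0101). Lama5 then rose in Pkd1 as well, by 0.48 (SE 0.10, adjusted p = 0.0209). In Pkd2 Lama1 at -0.44 no longer passed (adjusted p = 0.0597). This correction was chosen after the trend had been seen.

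**Figure D5:**
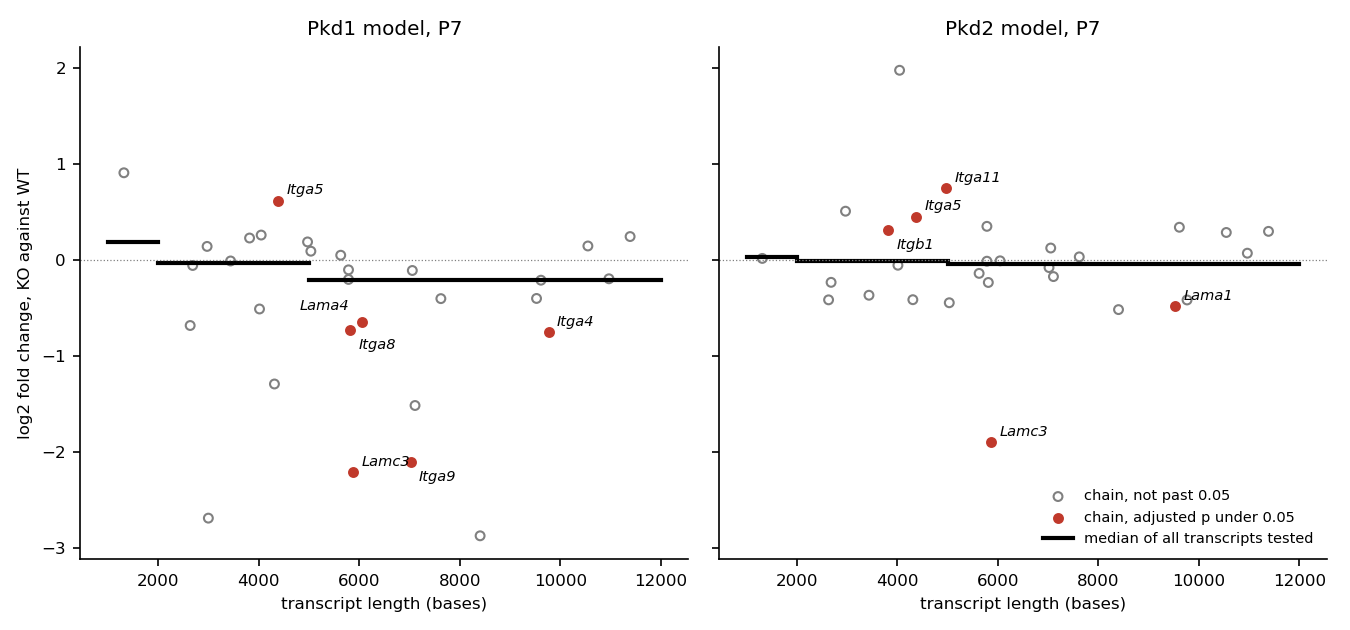
Log2 fold change of KO against WT at P7 against transcript length in bases, for chains tested in Pkd1 (left) and Pkd2 (right). Red points passed an adjusted p of 0.05 and black lines are medians of all transcripts up to 2000, between 2000 and 5000, and over 5000 bases. The lines step down from 0.20 to -0.20 in Pkd1 and from 0.04 to -0.03 in Pkd2.

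Whether the KO effect at P7 differed from that at P1 was tested as an interaction. In Pkd1, 6 of 31 chains passed (1 higher and 5 lower), beside 7.75% of transcripts (3.66% higher and 4.10% lower). They were the 6 chains that differed at P7, with Lamc3 at -2.37 (adjusted p = 0.0071), Itga9 at -2.05 (adjusted p = 0.0273), Itga4 at -0.91 (adjusted p = 0.0258), Itga8 at -0.88 (adjusted p = 0.0462), Lama4 at -0.68 (adjusted p = 0.0276) and Itga5 at 0.66 (adjusted p = 0.00403). With a term for Y-linked counts in the fit, 0 of these chains and 0 transcripts in all passed. Within a group, these counts varied only in Pkd1 WT at P1 (2 of 3 libraries). The term therefore rested on that group alone, and this fit cannot separate the sex chromosomes from the interaction. The count was 2 or 3 when P1 WT replicate 3, P1 KO replicate 1 or 2, P7 WT replicate 1 or 2, or P7 KO replicate 1 or 2 was left out, while the calls over all transcripts fell from 971 to between 314 and 638.

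In Pkd2, 2 of 30 chains passed, beside 1.30% of transcripts (1.12% higher and 0.174% lower). Lamc3 was at -1.95 (SE 0.27, adjusted p = 0.00182) and Itga5 at 0.41 (SE 0.08, adjusted p = 0.0205). The count was 1 without P1 WT replicate 2, P1 KO replicate 2, P7 WT replicate 2 or P7 KO replicate 2, with 89 to 133 transcripts called in place of 164. The KO effect at P7 gave no call between the models for the 30 chains tested in both by edgeR's interaction test (0 passed, beside 0% of 12343 transcripts). An unadjusted p under 0.05 was found for 3 chains and 2130 transcripts, and DESeq2 called 1 chain, Itga9, and 406 transcripts. Without Pkd1 WT replicate 3 at P7, 4 chains passed, among them Itga9, Lama2 and Lama4, beside 1449 of 12343 transcripts. For Lamc3 the difference was -0.28 (SE 0.39, adjusted p = 0.745) and for Itga5 0.18 (SE 0.11, adjusted p = 0.389).

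Ligands and partners of the chains were counted in 4 lists. Beside them, 13.7% of all transcripts were called in Pkd1 at P7 (6.20% higher and 7.54% lower) and 13.9% in Pkd2 (7.82% higher and 6.06% lower). No list was tested as a group. Of 16 tested genes for other integrin ligands, 6 rose and 1 fell in Pkd1 at P7 (median log2 fold change 0.44), and 7 rose and 1 fell in Pkd2 (median 0.80). The calls with the largest size were Fn1, Tgfb3 and Thbs1 in Pkd1 and Thbs1, Tgfb3 and Tgfb2 in Pkd2. Tgfb3, a TGF-beta that integrins can release from its latent form, rose by 1.64 (SE 0.13, adjusted p = 0.00106) and 1.49 (SE 0.11, adjusted p = 0.000343). Thbs1, thrombospondin 1, rose by 0.98 (SE 0.26, adjusted p = 0.0411) and 1.73 (SE 0.13, adjusted p = 0.000377). Fn1, fibronectin and thus the main ligand of Itga5, was at -2.97 (SE 0.79, adjusted p = 0.0434) in Pkd1 and 1.00 (SE 0.15, adjusted p = 0.0051) in Pkd2. Fn1 has 7 rows in the table, and the row used had a mean of 206.5 counts per library.

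Of 16 basement membrane partners tested in Pkd1, 4 fell (median -0.55), namely Frem1, Col4a5, Col18a1 and Col4a4, and Frem1, Col4a5 and Col18a1 each have several rows. In Pkd2, 1 of 15 rose (Fras1, at 0.54, adjusted p = 0.0399) and none fell (median -0.04). Of 17 genes of the adhesion complex, 1 rose and 1 fell in Pkd1 (Ptk2, focal adhesion kinase, at 0.48, and Tns3, a tensin, at -0.57) and 2 rose and 2 fell in Pkd2, where vinculin (Vcl) rose by 0.55 (adjusted p = 0.00163). These few calls stand beside 13.7% and 13.9% of all transcripts and are no result about the adhesion complex as a group. Of 6 non-integrin laminin receptors, Sdc1, syndecan 1, rose in Pkd1 (0.45, adjusted p = 0.0275) and in Pkd2 (0.52, adjusted p = 0.00241), and Rpsa rose in Pkd2 (0.38, adjusted p = 0.0272).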

How the data were processed

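RNA-seq read counts of 36 whole-kidney libraries were used as deposited. The authors made these counts per RefSeq transcript from reads aligned to mm10, and the submitters' processing notes name CASAVA 1.8.2, TopHat2 2.1.0 and HTSeq. Of 29996 rows, 28978 were paired with a symbol, and a gene with several rows was read from its row of highest mean count. All 36 count columns were mapped to samples by title and 0 others were present. Totals of 7179152 to 15850818 limit the precision of low chains. The members and gene lists were chosen with earlier results of these data known.

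Each model was fitted with edgeR 4.0.16 (R 4.3.3), using TMM factors and the quasi-likelihood test on rows reaching 10 counts in 3 or more of its 18 libraries, with p-values adjusted by the Benjamini-Hochberg method over all rows and a threshold of 0.05. KO against WT used the 6 libraries of a day, change with age the 9 WT libraries of a model, the day interaction all 18 libraries of a model, and the model interaction the 12 libraries of P7. The standard error is the log2 fold change divided by the square root of F. CPM used TMM factors over all 36 libraries. The scripts were tested on simulated data. Named with values were chains called at P7 in either model, Itga4, chains of the nephron and epithelial laminins, integrin chains of kidney epithelium and of leukocytes, the 3 chains of smallest p at P1 and P3, chains called with age in both models, and up to 3 called genes of largest size per other list. Chains called with age in 1 model, Col4a4, and Fn1 in Pkd2 were named after their values were seen. Alternatives were DESeq2 1.42.0, RLE factors, other filters, summed rows, a 2-fold minimum, the replicate block, a Y-linked covariate, all libraries in one fit, each library left out and, chosen after seeing the data, a transcript length correction. Some items that the counts and sums include are not reported here. Figures were drawn with matplotlib 3.10.9.

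Replicate numbers were compared across KO and WT by the correlation of deviations from the group means. These were above 0.1 for every pair only in Pkd1 at P1 (0.25 to 0.57), so the numbers may be pairs there. Replicate 3 of both genotypes also had the lowest share of counts on transcripts over 5000 bases there (19.8% in KO and 20.5% in WT). The correlation therefore does not by itself show pairing. The main fit used no pairs, and with the replicate as a block 0 chains passed, beside 5 of 12527 transcripts. Elsewhere libraries shared only a number.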

Additional observations from a re-analysis of the deposited data

Results flagged for a closer look

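The KO effect differed between P7 and P1 in edgeR's interaction test for 6 chains in Pkd1 and 2 in Pkd2. In Pkd1 the difference in log2 fold change was -2.37 for Lamc3, -2.05 for Itga9, -0.91 for Itga4, -0.88 for Itga8, -0.68 for Lama4 and 0.66 for Itga5. In Pkd2 it was -1.95 for Lamc3 and 0.41 for Itga5. In Pkd1 the presence of Y-linked counts changed with genotype and day, and 0 of the 6 passed with it as a covariate. Only WT at P1 held libraries with and without these counts, so that fit cannot separate the covariate from the interaction.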

How the results depend on the processing

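No log2 fold change of a named chain reversed its sign past the threshold. Counts of chains that moved by over 1.5 times are given here, and the cause was not tested. With DESeq2, 4 chains passed in Pkd1 and 1 in Pkd2 at P3, 8 passed with age in Pkd1 WT, and 1 differed between the models. With a 2-fold minimum, 2 passed in Pkd1 and 1 in Pkd2 at P7, 3 and 0 with age in Pkd1 and Pkd2 WT, and 2 and 1 in the interactions of day with KO. With Y-linked counts as a covariate, 2 and 4 passed with age in Pkd1 and Pkd2 WT, and 0 in the Pkd1 interaction. In both of these Pkd1 fits only WT at P1 held libraries with and without such counts. In Pkd1 at P7 this covariate could not be fitted. With all 18 libraries in one fit, 10 passed with age in Pkd1 WT. With the replicate block, 2 passed in Pkd1 at P7 and 1 in the Pkd2 interaction, and at Pkd1 P1, where the numbers may be pairs, 0 passed. In the other days and models the correlations of same-numbered libraries ran from -0.20 to 0.16. When each library was left out, counts ran from 1 to 8 in Pkd1 and 3 to 6 in Pkd2 at P7, from 4 to 6 and 2 to 7 with age in Pkd1 and Pkd2 WT, from 2 to 7 and 1 to 3 in the Pkd1 and Pkd2 interactions, and from 0 to 4 between the models. Low counts limit Itga6, Itga11, Itgax, Itgb6 and Itgb8.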
